A study of Homo sapiens with 4 samples.

Results

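The small nuclear RNAs (snRNAs) of the spliceosome were described in Caco-2, an established line from a human colorectal adenocarcinoma whose cells come to resemble absorptive enterocytes after confluence. Members were all probe sets whose platform annotation gave exactly 1 gene symbol and whose symbol began with RNU or RNVU. There were 41 of them, for 23 genes, among 33297 probe sets in all and 19460 with 1 gene symbol. The genes were chosen by symbol, but the set as a whole was selected on its cholate responses and support differences on these same arrays, so its levels and differences are a description and carry no test. Of the 23 genes, RefSeq lists 20 as snRNAs, 1 as a pseudogene (RNU6-501P) and 2 as small nucleolar RNAs (RNU105B and RNU105C). The last 2 are thus not spliceosomal RNAs by that table. They are described apart, but the counts and medians over all members include them. Major spliceosome RNAs made up 34 probe sets of 17 genes, and minor spliceosome RNAs 5 probe sets of 4 genes.

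Each condition had 1 array, hybridised with RNA pooled from 3 samples. The conditions were cholate on collagen-coated Transwell inserts, vehicle on such inserts, cholate on regular 6-well plates and vehicle on such plates. Cholate, a bile salt, was given for 3 h at 2 mM, on inserts in the apical compartment, in a buffered salt solution without calcium. The labels do not say what the vehicle contained. The labels state 21 days of differentiation throughout, while the growth protocol has 14 days for plates and 14 to 21 days for inserts, so age in culture could also differ between the supports. Pooled RNA carries no information on how cultures vary, so every difference given here compares 2 arrays and has no replicate check. A lower value cannot be told apart as fewer cells of a kind or less RNA per cell.

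The spliceosome removes introns from pre-mRNA, and its RNAs pair with the splice sites and form the catalytic centre. In the major spliceosome U1 pairs with the start of the intron and U2 with the branch point, after which U4, U5 and U6 join as a preassembled particle in which U4 holds U6 inactive. The minor spliceosome removes a rare class of introns with U11, U12, U4atac and U6atac in the corresponding roles, and both machines use U5. RNA polymerase II transcribes these genes except those of U6 and U6atac, which belong to RNA polymerase III. The RNVU1 genes are variants of U1, and many snRNA genes exist as near-identical copies, so a probe set named for 1 gene may also take up RNA of others.

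Values are log2 intensities that the authors computed with RMA, and a level of one probe set is not set against that of another. A floor of 4.84, the 40th percentile of the mean over the 4 arrays, marks values near background. Of the 23 genes, 15 had a mean at or above it. All 13 epithelial and enterocyte markers examined were above it on the mean, and so were 7 of 12 markers of other cell types. PTPRC, CD3E, CDH5, CHGA and MUC2, which mark leukocytes, T cells, endothelium, enteroendocrine cells and goblet cells, lay below it. Those above it included other leukocyte markers, LYZ (5.96) and CD79A (5.38), and another endothelial marker, PECAM1 (6.00). The rest above it were the fibroblast markers COL1A1 (7.80), COL1A2 (5.24) and COL3A1 (5.14) and the hepatocyte marker ALB (9.74). Medians of the arrays over all probe sets lay between 5.64 and 5.73.

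In cholate on Transwell, 3 of 41 member probe sets were at least 1.5-fold higher than in vehicle and 2 at least 1.5-fold lower, while 0.468% and 0.627% of all probe sets with 1 symbol were that much higher and lower. In cholate on the plate, 11 of 41 were at least 1.5-fold higher and 0 lower, where 1.43% and 1.92% of all with 1 symbol were. Over all 33297 probe sets the 95th percentile of the plate difference was 0.57, against 0.35 for those with 1 symbol. The share past 1.5-fold over all 33297 was not worked out. Counted by gene, with the probe set of highest mean standing for its gene, 2 of 23 were higher and 2 lower on Transwell, and 9 higher and 0 lower on the plate. The member median was 0.19 log2 on Transwell and 0.23 on the plate, against medians of 0.00 and -0.01 over all probe sets with 1 symbol. Since the members were chosen with these values known, nothing is read from the shares. On both supports 15 of 23 genes were above 0, as were 28.5% of all probe sets with 1 symbol, and 1 gene was below 0 on both.

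**Figure D1:**
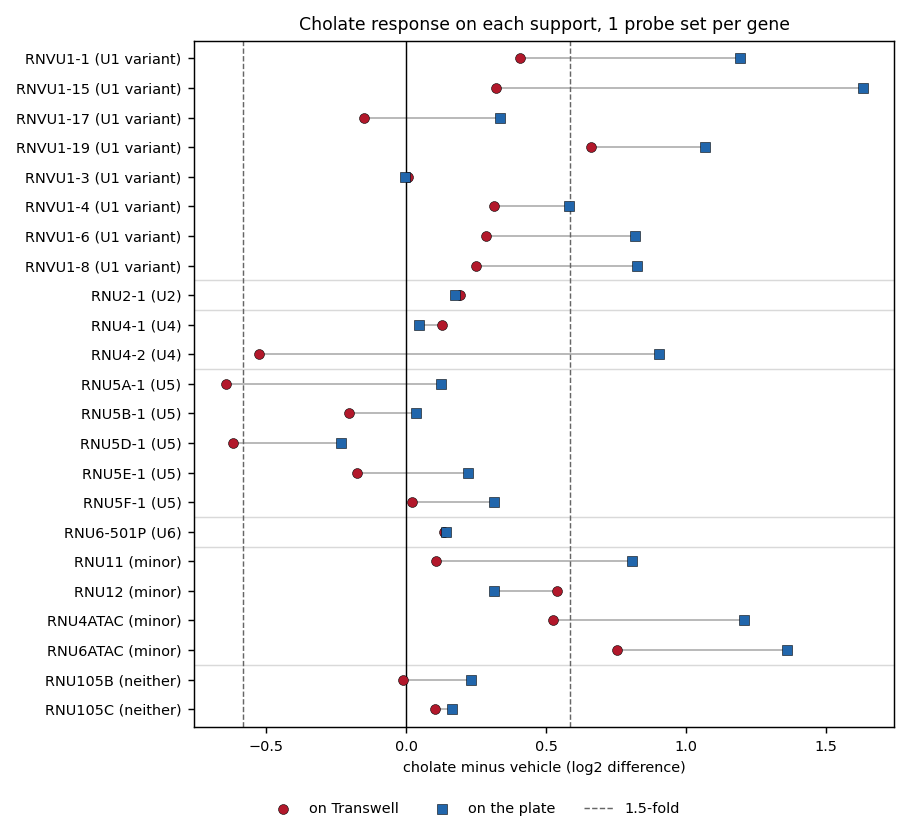
Cholate minus vehicle (log2 difference) for each of 23 genes, 1 probe set per gene, on Transwell (circles) and on the plate (squares), with dashed lines at 1.5-fold. RNVU1-15 stands at 0.32 on Transwell and 1.63 on the plate, while RNU5A-1 and RNU5D-1 lie beyond 1.5-fold lower on Transwell.

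Among all 23 genes the highest plate difference was that of RNVU1-15, a U1 variant. It read 7.01 in cholate and 6.69 in vehicle on Transwell, a difference of 0.32, and 7.90 in cholate and 6.27 in vehicle on the plate, a difference of 1.63 or 3.10-fold. Its other probe set gave differences of 0.31 and 1.60. Plate cholate was the highest of the 4 arrays for this gene and plate vehicle the lowest, with both Transwell arrays in between.

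RNVU1-1 showed the same order of arrays. It read 8.78 in cholate and 8.37 in vehicle on Transwell (0.41), and 9.09 in cholate and 7.89 in vehicle on the plate (1.19, or 2.29-fold). Both of its probe sets carried identical values on every array and count as 1 measurement.

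RNVU1-19 differed from these in being past 1.5-fold on both supports. Its brighter probe set read 7.30 in cholate and 6.64 in vehicle on Transwell (0.66, or 1.58-fold), and 7.77 in cholate and 6.70 in vehicle on the plate (1.07, or 2.10-fold). In this gene both vehicle arrays were low and nearly level. A second RNVU1-19 probe set lay under the floor on all arrays, at 2.54 to 2.83, with differences of 0.19 and 0.09, so the 2 probe sets disagree.

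RNVU1-6 and RNVU1-8 were nearer to 1.5-fold. RNVU1-6 read 7.17 in cholate and 6.88 in vehicle on Transwell (0.28), and 7.07 in cholate and 6.25 in vehicle on the plate (0.82). RNVU1-8 read 5.33 and 5.08 for cholate and vehicle on Transwell (0.25) and 5.50 and 4.67 on the plate (0.82), the last under the floor. In both genes the plate vehicle array was the lowest of all.

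The other 3 U1 variants lay under the floor on every array, where differences are compressed. RNVU1-4, at 2.96 to 3.72 over its 3 probe sets, had 0.32 on Transwell and 0.58 on the plate for its 2 brighter probe sets, which share all values, and were thus just short of 1.5-fold. RNVU1-17, at 2.60 to 2.94, had -0.15 and 0.34, and RNVU1-3, at 3.29 to 3.53, had 0.00 and -0.01. All 5 U1 variant genes above the floor were past 1.5-fold on the plate and all 3 below it were not. The median of the 8 genes was 0.30 on Transwell and 0.82 on the plate.

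The standard U1 genes were not among the members, because their probe sets list 6 or 7 U1 symbols together. These 9 probe sets held 3 distinct sets of values. Over them, levels were 11.11 to 11.15 in cholate and 10.73 to 10.77 in vehicle on Transwell, with differences of 0.38 to 0.39. On the plate they were 11.39 to 11.43 in cholate and 10.29 to 10.31 in vehicle, with differences of 1.10 to 1.14. Their arrays thus stood in the order seen for RNVU1-1, and how much of the variants' signal comes from standard U1 RNA was not tested.

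U2 differed little between treatments. The 11 probe sets of RNU2-1 carried 3 sets of values, and 9 of them were identical on all arrays. Those 9 read 11.66 in cholate and 11.47 in vehicle on Transwell (0.19), and 11.85 in cholate and 11.68 in vehicle on the plate (0.17). The remaining 2 gave 0.23 and 0.19 on Transwell and 0.24 and 0.31 on the plate. Because 1 gene supplied 11 of 41 member probe sets, it pulls every member median towards its own value.

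The U4 genes differed in sign on Transwell, while both were above 0 on the plate. RNU4-1 read 7.12 in cholate and 6.99 in vehicle on Transwell (0.13), and 6.95 in cholate and 6.91 in vehicle on the plate (0.04). For RNU4-2 the values were 4.36 and 4.88 for cholate and vehicle on Transwell (-0.53), and 4.62 and 3.71 on the plate (0.90, or 1.87-fold). Only its Transwell vehicle value reached the floor, and it was the gene with the widest gap between the 2 responses, -1.43 as Transwell minus plate.

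Among the U5 genes, 2 were past 1.5-fold and both were lower on Transwell. RNU5D-1 read 7.53 in cholate and 8.15 in vehicle on Transwell (-0.62), and 6.99 in cholate and 7.22 in vehicle on the plate (-0.23). It was the 1 gene of the 23 below 0 on both supports. RNU5A-1 read 4.65 and 5.29 for cholate and vehicle on Transwell (-0.64) and 4.52 and 4.40 on the plate (0.12), with only the Transwell vehicle array above the floor.

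The other U5 genes stayed inside 1.5-fold. RNU5E-1 read 10.83 in cholate and 11.00 in vehicle on Transwell (-0.17), and 11.05 in cholate and 10.83 in vehicle on the plate (0.22). RNU5B-1, close to the floor at 4.88 to 5.19, had -0.20 and 0.04. RNU5F-1, under it at 2.72 to 3.04, had 0.02 and 0.31. The median over the 5 U5 genes was -0.20 on Transwell and 0.12 on the plate.

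For U6 the members held only RNU6-501P, a pseudogene, so the functional U6 genes are not described here. It was within 1.5-fold everywhere and was named after its values were seen, as the only U6 entry. Its brighter probe set read 4.07 to 4.24 and its dimmer one 2.85 to 3.05, all under the floor, with differences of 0.11 to 0.14 on both supports.

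All 4 minor spliceosome genes were higher in cholate than in vehicle on both supports. Their median over genes was 0.53 on Transwell and 1.01 on the plate, and over the 5 probe sets 0.54 and 0.81. RNU4ATAC, the counterpart of U4, read 6.58 in cholate and 6.06 in vehicle on Transwell (0.52), and 7.39 in cholate and 6.19 in vehicle on the plate (1.21, or 2.31-fold). Its vehicle arrays were nearly level and its plate cholate array stood highest.

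RNU6ATAC, the counterpart of U6, had 2 probe sets that disagree in size. The brighter read 6.01 in cholate and 5.26 in vehicle on Transwell (0.75, or 1.69-fold), and 6.65 in cholate and 5.29 in vehicle on the plate (1.36, or 2.57-fold). The dimmer read 5.60 and 5.01 for cholate and vehicle on Transwell, and 5.34 and 4.92 on the plate. With differences of 0.59 and 0.42 it passed 1.5-fold narrowly on Transwell and not on the plate. Both probe sets put each cholate array above its vehicle array, but only the brighter had the larger difference on the plate. Among the 41 members, this brighter probe set and the brighter one of RNVU1-19 were the 2 past 1.5-fold on both supports, as were 0.159% of all probe sets with 1 symbol.

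RNU11 and RNU12, which act together in recognising minor introns, showed different patterns. RNU11 read 6.67 in cholate and 6.56 in vehicle on Transwell (0.11), and 6.90 in cholate and 6.10 in vehicle on the plate (0.81, or 1.75-fold). RNU12 read 5.97 in cholate and 5.43 in vehicle on Transwell (0.54), and 5.81 in cholate and 5.49 in vehicle on the plate (0.32). For each of them both vehicle arrays lay below both cholate arrays. With RNU11 the plate vehicle array stood lowest, as in most U1 variants, and plate cholate highest. With RNU12 the Transwell vehicle array stood lowest and Transwell cholate highest.

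The pair of small nucleolar RNAs that the symbol rule also took in differed little in cholate. RNU105B read 6.06 and 6.07 for cholate and vehicle on Transwell (-0.01), and 6.18 and 5.95 on the plate (0.23). RNU105C lay under the floor on all arrays, at 3.73 to 4.51, with 0.10 and 0.16.

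**Figure D2:**
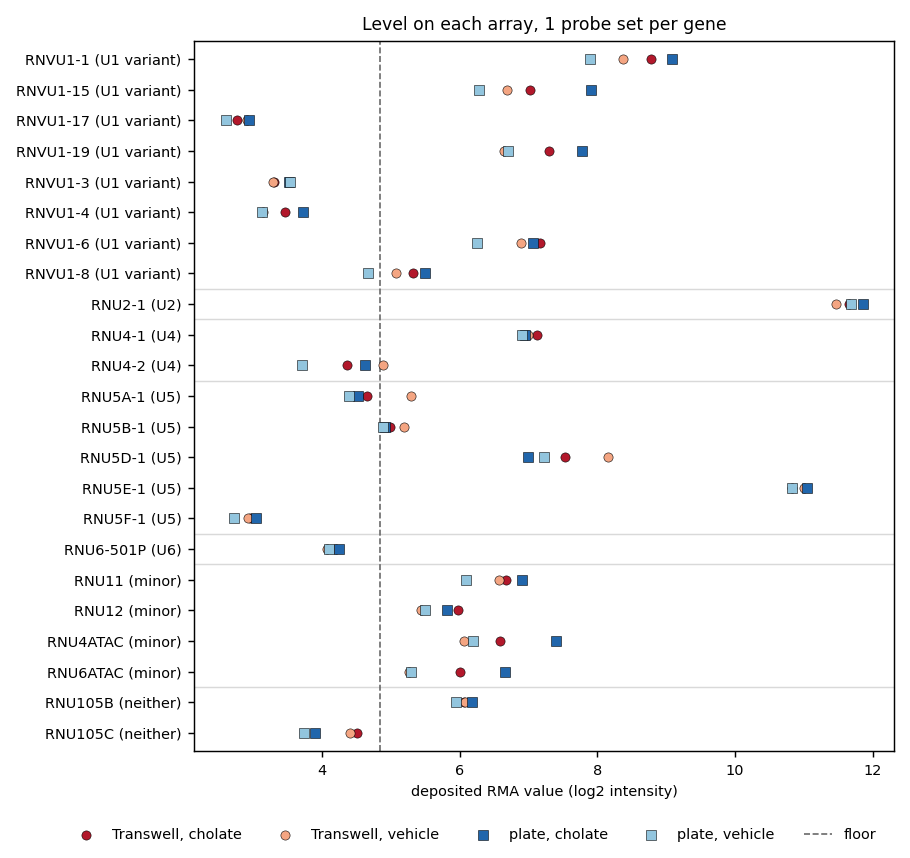
Deposited log2 intensity of each of 23 genes on the 4 arrays, 1 probe set per gene, with the floor as a dashed line. Plate vehicle is the lowest array for 14 genes and plate cholate the highest for 14, with no share over all probe sets worked out. Levels are not to be compared between rows.

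Over the 23 genes, plate vehicle was the lowest array for 14 and plate cholate the highest for 14. The signed response on Transwell minus that on the plate was below 0 in 19 of 23 genes, which include RNU5A-1, RNU5B-1 and RNU5D-1, whose Transwell responses were negative and larger in size. Shares over all probe sets were not worked out for these counts, so nothing is read from them. The plate vehicle array enters both the plate response and the support difference in vehicle, and the plate cholate array both the plate response and the support difference in cholate, so these comparisons are not independent of each other.

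In cholate, 1 of 41 member probe sets was at least 1.5-fold higher on Transwell than on the plate and 4 were at least 1.5-fold lower, where 3.05% and 2.93% of all probe sets with 1 symbol were. In vehicle, 5 of 41 were at least 1.5-fold higher on Transwell and 0 lower, where 1.53% and 2.48% of all were. By gene these counts were 1 and 3 of 23 in cholate and 5 and 0 of 23 in vehicle. The 1 higher in cholate was RNU105C, a small nucleolar RNA, which was also 1 of the 5 in vehicle. Of the major and minor spliceosome RNAs, 0 were that much higher on Transwell in cholate. The member median of Transwell minus plate was -0.19 in cholate and 0.0077 in vehicle. Over all probe sets with 1 symbol the medians were 0.01 and 0.00. In vehicle 21 of 41 member probe sets were above 0 and 20 below, and 50.2% of all with 1 symbol were above 0. By gene the medians were -0.18 in cholate and 0.21 in vehicle, so the vehicle median depends on how copies are counted. In cholate the 5th percentile over all 33297 probe sets was -0.58, against -0.47 for those with 1 symbol.

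**Figure D3:**
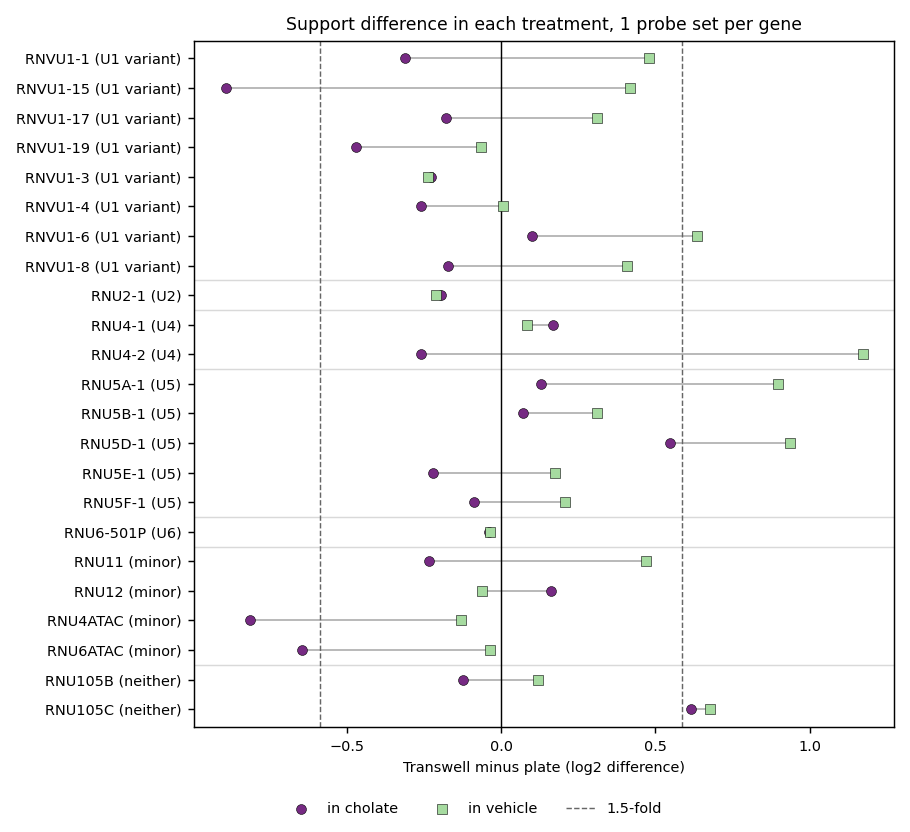
Transwell minus plate (log2 difference) for each of 23 genes, 1 probe set per gene, in cholate (circles) and in vehicle (squares), with dashed lines at 1.5-fold. RNVU1-15 lies at -0.89 in cholate and 0.42 in vehicle, whereas RNU5D-1 is above 0 in both.

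The 4 probe sets that were lower on Transwell in cholate belonged to genes with large plate responses. RNVU1-15 stood at -0.89 in cholate for both its probe sets, and at 0.42 and 0.40 in vehicle. RNU4ATAC stood at -0.81 in cholate and -0.13 in vehicle, and the brighter RNU6ATAC probe set at -0.64 and -0.04. The dimmer RNU6ATAC probe set had 0.26 and 0.09, so the sign for this gene depends on the probe set. RNU11 stood at -0.23 in cholate and 0.47 in vehicle, and RNU12 at 0.16 and -0.06.

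RNU5D-1 was the U5 gene furthest apart between supports, with 7.53 on Transwell and 6.99 on the plate in cholate (0.55), and 8.15 on Transwell and 7.22 on the plate in vehicle (0.93, or 1.91-fold). RNU5A-1 had 0.13 in cholate and 0.90 in vehicle, and RNU5B-1, a neighbouring entry to it in the RefSeq table, had 0.07 and 0.31. All 5 U5 genes were above 0 in vehicle, with a median of 0.31. In cholate 3 of 5 were, with a median of 0.07.

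RNU4-2 gave the highest value in vehicle, 1.17 or 2.25-fold, from 4.88 on Transwell against 3.71 on the plate, the second of which is under the floor. In cholate it stood at -0.26, with both arrays under the floor. RNU4-1 had 0.17 in cholate and 0.08 in vehicle. RNU2-1 was lower on Transwell in both treatments, at -0.19 in cholate and -0.21 in vehicle for the 9 identical probe sets.

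RNVU1-6 was the 1 U1 variant past 1.5-fold in vehicle, at 0.63, and stood at 0.10 in cholate. The 6 U1 variants other than it and RNVU1-15 ranged from -0.47 to -0.17 in cholate and from -0.24 to 0.48 in vehicle. RNU105C, a small nucleolar RNA under the floor, was the single member past 1.5-fold in both treatments, at 0.61 in cholate and 0.68 in vehicle.

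Some cell markers also differed between supports. Of all probe sets with 1 symbol, 3.05% were at least 1.5-fold higher on Transwell and 2.93% lower in cholate. In vehicle these shares were 1.53% and 2.48%. Of 13 epithelial and enterocyte markers, 2 were at least 1.5-fold higher on Transwell in cholate and 3 in vehicle, with 0 lower in either. These were FABP2 and KRT20 in cholate, and FABP2, CDX2 and ANPEP in vehicle. The median of the 13 was 0.03 in cholate and 0.08 in vehicle. Of 12 markers of other cell types, 1 was higher (PECAM1) and 1 lower (ALB) in cholate, and 0 were higher and 1 lower (ALB) in vehicle. The part of cell markers in the snRNA differences was not tested.

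Many small nucleolar RNAs were also at least 1.5-fold higher in cholate on the plate, and few were on Transwell. Of all probe sets with 1 symbol, 0.468% were that much higher and 0.627% lower on Transwell. On the plate these shares were 1.43% and 1.92%. Of 115 SNORD probe sets, the C/D box small nucleolar RNAs, 6 were at least 1.5-fold higher in cholate on Transwell and 34 on the plate, with medians of 0.09 and 0.21. Of 64 SNORA probe sets, the H/ACA box class, 2 were higher and 1 lower on Transwell and 22 were higher on the plate, with medians of 0.12 and 0.43. Among the 3 vault RNA probe sets 0 were that much higher on Transwell and 2 on the plate. The 1 Y RNA probe set was lower in cholate, at -0.20 on Transwell and -1.28 on the plate, and the telomerase RNA TERC stood at 0.52 and 0.00. Of 179 microRNA gene probe sets 1 was at least 1.5-fold higher and 0 lower on Transwell, and 8 higher and 3 lower on the plate. Their shares higher on Transwell (0.559%) and lower on the plate (1.68%) were near those of all with 1 symbol. In turn 0 of 19 SCARNA probe sets, RNAs that guide modification of snRNAs in Cajal bodies, were past 1.5-fold on either support, with medians of 0.05 and 0.09. The RNA components of RNase MRP (RMRP) and RNase P (RPPH1) stood at -0.01 and 0.05 on Transwell and at 0.15 and 0.07 on the plate. The part that recovery or labelling of short RNA had in the snRNA values was not tested.

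**Figure D4:**
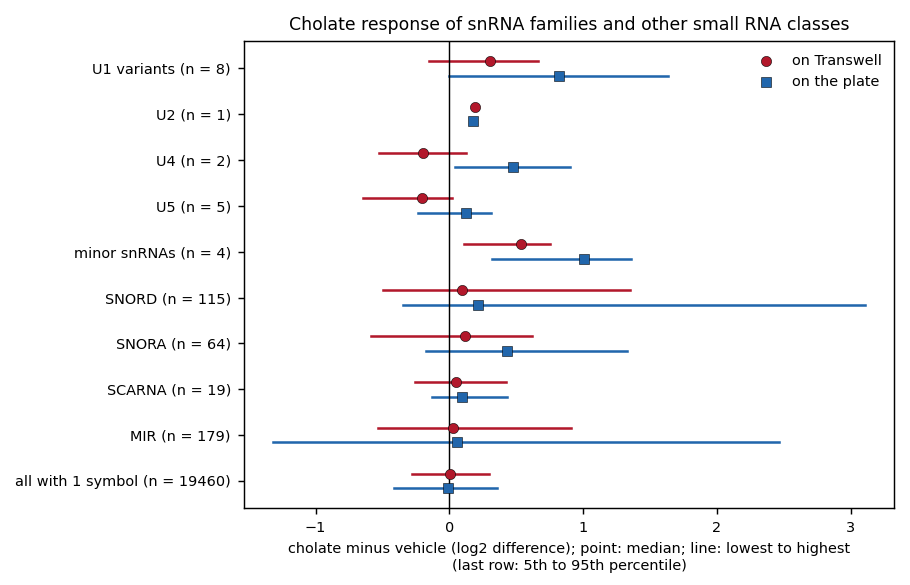
Cholate minus vehicle (log2 difference) for snRNA families by gene and for other small RNA classes by probe set, on Transwell (circles) and on the plate (squares). Points are medians and lines run from the lowest to the highest value, except in the last row, where they span the 5th to 95th percentile of 19460 probe sets. The minor snRNAs (median 0.53 on Transwell and 1.01 on the plate) and U1 variants (0.30 and 0.82) had medians above 0 on both supports. So did U2 and the SNORD, SNORA, SCARNA and MIR classes, while U4 and U5 had medians below 0 on Transwell.

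Messages for the proteins that build and carry snRNAs had medians slightly below 0 in cholate. Of 110 genes in 11 lists, 105 had a probe set of their own, all above the floor. In cholate 0 were past 1.5-fold in either direction on Transwell, and on the plate 1 was higher and 3 were lower. Over all probe sets with 1 symbol the shares were 0.468% higher and 0.627% lower on Transwell and 1.43% higher and 1.92% lower on the plate. Their median was -0.04 on Transwell and -0.11 on the plate, and 28 of 105 were above 0 on the plate, as were 48.2% of all probe sets with 1 symbol. SNUPN, which encodes snurportin 1, the import adaptor for capped snRNPs, read 5.57 in cholate and 5.82 in vehicle on Transwell (-0.25), and 5.07 in cholate and 5.79 in vehicle on the plate (-0.71).

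The list of snRNA export, SMN complex, cap and Cajal body genes was below 0 on the plate for all 17 measured members, with a median of -0.21, and for 11 of 17 on Transwell, with a median of -0.05. All 11 measured U5 and tri-snRNP protein genes were likewise below 0 on the plate (median -0.12), as were 8 of 11 on Transwell (-0.10). TXNL4A, a small U5 protein, was the 1 among them past 1.5-fold, at -0.12 on Transwell and -0.60 on the plate.

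Genes of minor spliceosome proteins had a median of -0.08 on Transwell and 0.03 on the plate over 10 measured members. RNPC3, whose protein binds the U11 and U12 particle together, read 7.04 in cholate and 6.92 in vehicle on Transwell (0.11), and 6.26 in cholate and 7.01 in vehicle on the plate (-0.76). Its plate cholate array was the lowest of the 4, where RNU11, RNU4ATAC and the brighter RNU6ATAC probe set were highest. RNU12 and the dimmer RNU6ATAC probe set were instead highest in cholate on Transwell.

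Genes of the Sm proteins, which form the ring around most spliceosomal snRNAs, had medians of -0.09 on Transwell and -0.13 on the plate (7 measured), and U1 protein genes 0.01 and -0.09 (3 measured). SNRPA, which encodes a U1 protein, had the largest mean response of those 3, at -0.15 on Transwell and -0.20 on the plate. U2 protein genes had -0.02 and 0.02 (12 measured), with SNRPA1 at 0.27 and 0.12. The U4/U6 and LSm list had -0.05 and -0.17 (12 measured), with LSM3 at 0.07 and -0.44. LSM10, of the histone-processing U7 particle, stood at 0.03 and 0.31, in a list of 2 with medians of -0.06 and 0.09.

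Among genes acting on snRNA synthesis, INTS6, a subunit of the Integrator complex that cuts the 3′ ends of polymerase II snRNAs, was the 1 past 1.5-fold higher on the plate. It read 7.91 in cholate and 7.69 in vehicle on Transwell (0.21), and 7.90 in cholate and 7.25 in vehicle on the plate (0.65). The 14 Integrator genes as a list had medians of 0.03 on Transwell and -0.15 on the plate. The snRNA transcription factor list (9 measured) had -0.05 and -0.06. Genes of 3′ end trimming and modification (8 measured) had 0.14 and -0.03, with MEPCE, the capping enzyme of 7SK RNA, at 0.19 and 0.46.

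Between supports these protein genes lay mostly above 0. Of the 105, 80 were above 0 in cholate and 85 in vehicle, as were 51.2% and 50.2% of all probe sets with 1 symbol. In cholate 11 of 105 were past 1.5-fold higher on Transwell and 0 lower, with a median of 0.24, where 3.05% of all probe sets with 1 symbol were higher and 2.93% lower. In vehicle 1 was higher and 0 lower, with a median of 0.14, where 1.53% of all were higher and 2.48% lower. All 17 genes of the export and SMN list were above 0 in cholate (median 0.44) and 16 in vehicle (0.17). GEMIN6, an SMN complex subunit, read 7.34 on Transwell and 6.43 on the plate in cholate (0.90), and 7.40 on Transwell and 6.83 on the plate in vehicle (0.56). All 7 Sm genes were above 0 in both treatments, with SNRPD1 at 0.67 and 0.48 and SNRPG at 0.63 and 0.53. Not every list leaned this way. U2 protein genes had 6 of 12 above 0 in each treatment, and minor spliceosome protein genes 5 of 10 in cholate and 9 of 10 in vehicle.

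The other genes past 1.5-fold in cholate were LSM3 (0.83), SNRNP40 (0.85), TXNL4A (0.77), RNPC3 (0.78), INTS14 (0.62), INTS8 (0.61) and COIL (0.60), the last encoding the Cajal body protein coilin. In vehicle these 7 ranged from -0.09 (RNPC3) to 0.41 (COIL). SNAPC1, a subunit of the complex that binds snRNA promoters, was the 1 past 1.5-fold in both treatments, with 7.28 on Transwell and 6.63 on the plate in cholate (0.65), and 7.31 on Transwell and 6.69 on the plate in vehicle (0.62).

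**Figure D5:**
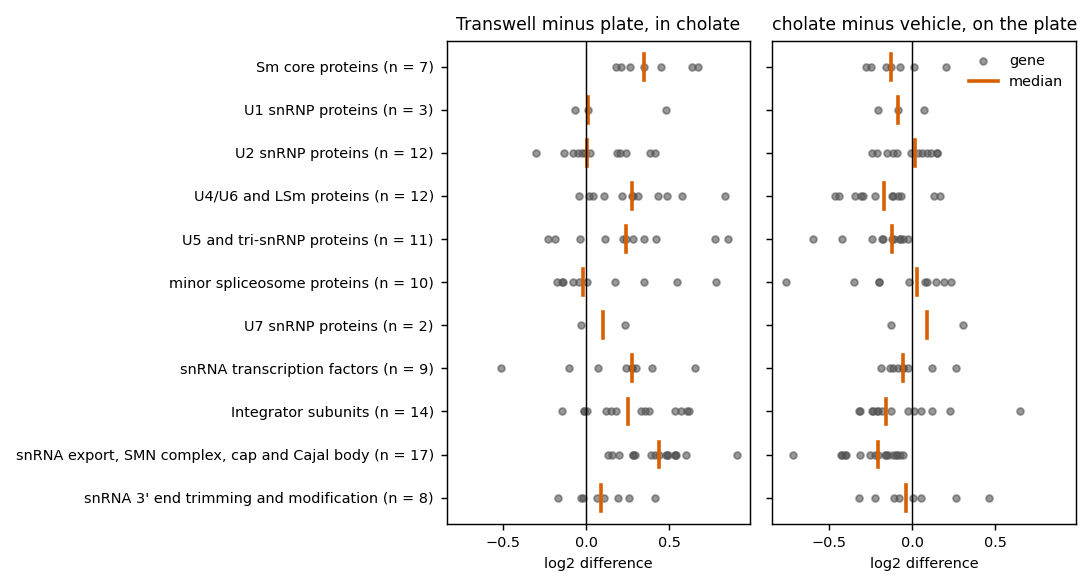
Log2 differences of single genes (points) and their medians (bars) in 11 lists of snRNP proteins and snRNA biogenesis factors, for Transwell minus plate in cholate and for cholate minus vehicle on the plate. All 17 export and SMN genes lie above 0 in the first comparison and below 0 in the second, and both comparisons use the plate cholate array.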

How the data were processed

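The authors deposited log2 intensities from 4 arrays. Per the submitters' processing notes they came from RMA, and neither its software and version nor how probe sets were defined is stated there. RMA makes arrays alike in distribution and compresses differences near background. Total RNA was purified further on a column, and labelled cDNA came from 100 ng of pooled total RNA without removal of ribosomal RNA, per the labels. Gene names came from the platform annotation, and all 41 members matched RefSeq (GRCh38.p14) by gene number. Genome positions were left out, since no source states the build behind the probe sets, and 0 of 23 member genes are in the RefSeq promoter table, so no sequence is shown.

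Log2 differences, counts at 1.5-fold and medians were computed in Python 3.11.15 with pandas 2.3.3 and numpy 2.4.6. No filter was applied to members, and the highest-mean probe set stood for a gene. Counting was tested on simulated data without noise, which checks its arithmetic only. With 1 array per condition and members chosen on known values, no test was run. Members, lists and naming rules (all member genes but pseudogenes within 1.5-fold, and, of protein genes, those past 1.5-fold or else the largest mean response of a list) were chosen with earlier results of these data known. Alternatives were 2 other scalings, the floor, other choices of members and a 2-fold limit.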

Additional observations from a re-analysis of the deposited data

How the results depend on the processing

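No paired analysis was possible because each condition had 1 array. For the same reason no array could be left out, and array number limits precision throughout. Under median centring and quantile normalization none of the 92 differences of single genes moved by over 0.10 log2 or changed sign when past 1.5-fold, and RNU5D-1 alone crossed 1.5-fold (0.59 for Transwell minus plate in cholate under centring, which brought that count of members higher to 2). The count of members higher in cholate on the plate was 20 of 50 with the probe sets of several U1 symbols added and 7 at 2-fold. The 9 added probe sets hold 3 distinct sets of values, so the 20 counts copies. At 2-fold the counts on Transwell were 0 higher and 0 lower, those for Transwell over plate 1 higher in vehicle and 0 higher and 0 lower in cholate. Among the 28 members above the floor, 1 was lower in cholate on Transwell, and for Transwell over plate 0 were higher in cholate and 2 in vehicle. Shares over all probe sets were not worked out at 2-fold or above the floor, so nothing is read from those counts.

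Medians depended on how often copies were counted. For cholate on the plate the minor median was 1.01 with 1 probe set per gene. The major median there was 0.31 with 1 probe set per gene, 0.31 with several-symbol probe sets and 0.31 with identical profiles counted once, an alternative chosen after seeing the data. For Transwell minus plate in cholate the minor median was -0.44 by gene. In vehicle the member median, 0.0077 over all members, was -0.050 above the floor and 0.21 by gene. It was 0.11 with several-symbol probe sets and 0.11 with identical profiles counted once. The major median in vehicle, -0.01 over all major members, was 0.0021 under centring, 0.0058 under quantile normalization, -0.14 above the floor, 0.31 by gene, 0.17 with several-symbol probe sets and 0.17 with identical profiles counted once, so it has no settled sign. Leaving out the pseudogene changed no count by over 1.5 times and no median by over 0.10.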
